A study of Homo sapiens with 16 samples.

Results

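The 10 genes described here encode parts of the machinery for endoplasmic reticulum-associated degradation (ERAD). They are taken by their symbols: HERPUD1, SYVN1, SEL1L, DERL1, DERL2, EDEM1, EDEM2, EDEM3, OS9 and VCP. All 10 were among the 17738 genes of the deposited table, and all 10 were among the 16714 tested. They were followed in 16 RNA sequencing libraries of H1, an established line of wild-type human embryonic stem cells, made as 8 groups of 2. Each group spent 24 h in a medium built on E7, which is E8 medium lacking TGFb. The groups with 2-deoxyglucose (2DG, 3 mM) were E7+2DG, E7+TGFb+2DG, E7+ActivinA+2DG and E7+NODAL+2DG, and each had a counterpart without 2DG in E7, E7+TGFb, E7+ActivinA or E7+NODAL. TGFb was added at 1.74 ng/mL, and Activin A and NODAL at 100 ng/mL. The material is 1 cell line at 1 time, and nothing in the labels tells whether the 2 libraries of a group were separate cultures, so p-values measure the spread between these libraries, which may be technical.

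ERAD removes proteins that fail to fold in the endoplasmic reticulum (ER). Misfolded glycoproteins lose mannose residues, are bound by lectins, pass through a membrane complex built on a ubiquitin ligase, and are pulled into the cytosol for the proteasome. The unfolded protein response, the signalling that follows protein misfolding in the ER, induces several of these genes in human cells. 2DG is a glucose analogue that blocks glycolysis, and, since it also resembles mannose, it can disturb the building of N-linked glycans.

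The stretch before the RefSeq transcription start is shown for the members with the largest responses to 2DG, HERPUD1 and SYVN1, and for VCP, the member that fell. RefSeq promoters (GRCh38.p14) were matched for 9 of the 10 genes. Each run is 250 bases, 5′ to 3′ on the strand of the gene, with matches to motifs of 8 or more letters in capitals and the short CCACG left in small letters where it stands alone. HERPUD1 lies at chr16:56931892-56932141, plus strand. The SYVN1 run is chr11:65134520-65134769 and the VCP run is chr9:35072626-35072875, both on the minus strand. The GENCODE 29 spans of these 3 genes start farther upstream, so that the VCP run lies within its gene's span and the other 2 runs overlap theirs.
HERPUD1: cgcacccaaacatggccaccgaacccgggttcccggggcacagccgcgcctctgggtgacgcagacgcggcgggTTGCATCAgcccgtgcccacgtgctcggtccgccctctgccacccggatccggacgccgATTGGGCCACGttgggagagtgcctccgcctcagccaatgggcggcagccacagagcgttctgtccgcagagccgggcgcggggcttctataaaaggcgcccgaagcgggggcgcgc
SYVN1: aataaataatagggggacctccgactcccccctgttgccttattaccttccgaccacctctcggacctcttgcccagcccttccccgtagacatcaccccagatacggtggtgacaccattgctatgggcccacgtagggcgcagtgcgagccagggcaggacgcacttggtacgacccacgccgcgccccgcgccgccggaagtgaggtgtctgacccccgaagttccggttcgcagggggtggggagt
VCP: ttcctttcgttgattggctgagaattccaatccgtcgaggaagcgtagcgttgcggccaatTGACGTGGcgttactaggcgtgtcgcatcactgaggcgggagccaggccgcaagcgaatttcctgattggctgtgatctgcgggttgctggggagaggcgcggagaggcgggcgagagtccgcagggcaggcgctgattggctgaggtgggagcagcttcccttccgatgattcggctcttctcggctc
The capitals in HERPUD1 mark TTGCATCA, at -176 to -169 from the start, and ATTGGGCCACG, at -117 to -107. TTGCATCA is a core of the composite element bound by ATF4, and ATTGG and CCACG with any 1 base between them are the ER stress response element II (ERSE-II). The capitals in VCP mark TGACGTGG, the core of the unfolded protein response element (UPRE), at -189 to -182. Both strands were searched in the same window of 35116 promoters. ERSE-II stood in 18 of them (0.0513%), TTGCATCA in 271 (0.772%) and TGACGTGG in 215 (0.612%). The ER stress response element itself, CCAAT and CCACG with any 9 bases between them, stood in 26 promoters (0.074%) and in 0 of the 9 member runs. Its last letters, CCACG, which are also the end of ERSE-II and, on the other strand, part of TGACGTGG, stood in 7 of the 9 member runs and in 33.5% of all promoters. A match describes letters only.

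Values are normalised read counts, that is, the reads of a gene scaled by a factor of its library. Responses are log2 differences of the value plus 1 from limma-trend, with standard errors (SE) from that fit, and a gene is called at a Benjamini-Hochberg adjusted p under 0.05 over all tested genes. Libraries held 14600479 to 17630329 reads, and the lowest read number of any member was 257, for EDEM2. The 6 pluripotency markers (POU5F1, SOX2, NANOG, LIN28A, DNMT3B and TDGF1) summed to 98878 to 123130 in libraries with 2DG and 101358 to 126526 in those without. The sum of 4 of 7 fibroblast and stromal markers was 2765 to 4098 with 2DG and 3884 to 5244 without, while COL3A1, DCN and LUM were not analysed here. For 3 of 6 mesendoderm and endoderm markers it was 47.9 to 1381 with 2DG and 163 to 1633 without (GATA6, SOX17 and CER1 were not analysed here). For 4 neuroectoderm markers it was 7588 to 11876 with 2DG and 8159.9 to 10280.4 without. THY1, at 1814 to 4030, was the largest part of the stromal sum, where PDGFRB was 10.9 to 64.9. NES, at 6219 to 10827, was the largest part of the neuroectoderm sum, where PAX6 reached at most 39.8 and SOX1 at most 52.7. Within each medium the stromal and mesendoderm sums were lower with 2DG, except that the Activin A libraries overlapped for the stromal sum. The neuroectoderm sum was lower with 2DG in E7, TGFb and NODAL medium and higher in Activin A medium, without overlap. The pluripotency sum was higher with 2DG in TGFb medium (121034 to 123130 against 115397 to 115819) and in NODAL medium (113652 to 116519 against 101699 to 108403), and its libraries overlapped in the other media. Fewer cells of a type and less RNA per cell cannot be told apart in such bulk samples, and the part of other cell types in the results was not tested.

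The 2 libraries of E7+ActivinA stood apart from each other, with a chi-square per degree of freedom of 53.3 between them, against 14.7 in E7+ActivinA+2DG, 10 in E7 and 1.58 to 5.27 in the other 5 groups. The difference between the E7+ActivinA libraries followed transcript length (Spearman's rho -0.462 over 16335 genes). Replicates also differed along length in E7 (0.347), E7+2DG (0.212), E7+NODAL (-0.211) and E7+ActivinA+2DG (-0.198). Those in E7, E7+2DG and E7+NODAL remain when the Activin A libraries are left out. The spread of the E7+ActivinA libraries enters the error of every comparison in a model of all 16 libraries. Results without the 4 libraries with Activin A are therefore given beside those with them wherever the call changed. The calls so gained by SEL1L in TGFb medium and by EDEM3, OS9 and VCP in E7 also appeared when either E7+ActivinA library alone was left out.

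With 2DG, HERPUD1, the ligase gene SYVN1 and the mannosidase-like genes EDEM1 and EDEM2 rose most, and the ATPase gene VCP fell slightly. Averaged over the 4 media, 7 of the 10 genes rose and 1 fell, where 19.2% of all tested genes were called higher and 19.4% lower. The median member response was 0.29, against -0.00061 over all tested genes. HERPUD1 stood first with a log2 response of 1.37 ± 0.09 (SE; adjusted p = 3.64e-07), followed by SYVN1 at 0.70, EDEM1 at 0.68 and EDEM2 at 0.52. Smaller rises were called for SEL1L (0.36), EDEM3 (0.21) and OS9 (0.18), and VCP fell by 0.15 on the log2 scale. DERL1 and DERL2 were not called, at 0.07 and 0.12. Only HERPUD1 and SYVN1 had all 8 libraries with 2DG above all 8 without it, as did 2.03% of tested genes.

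**Figure D1:**
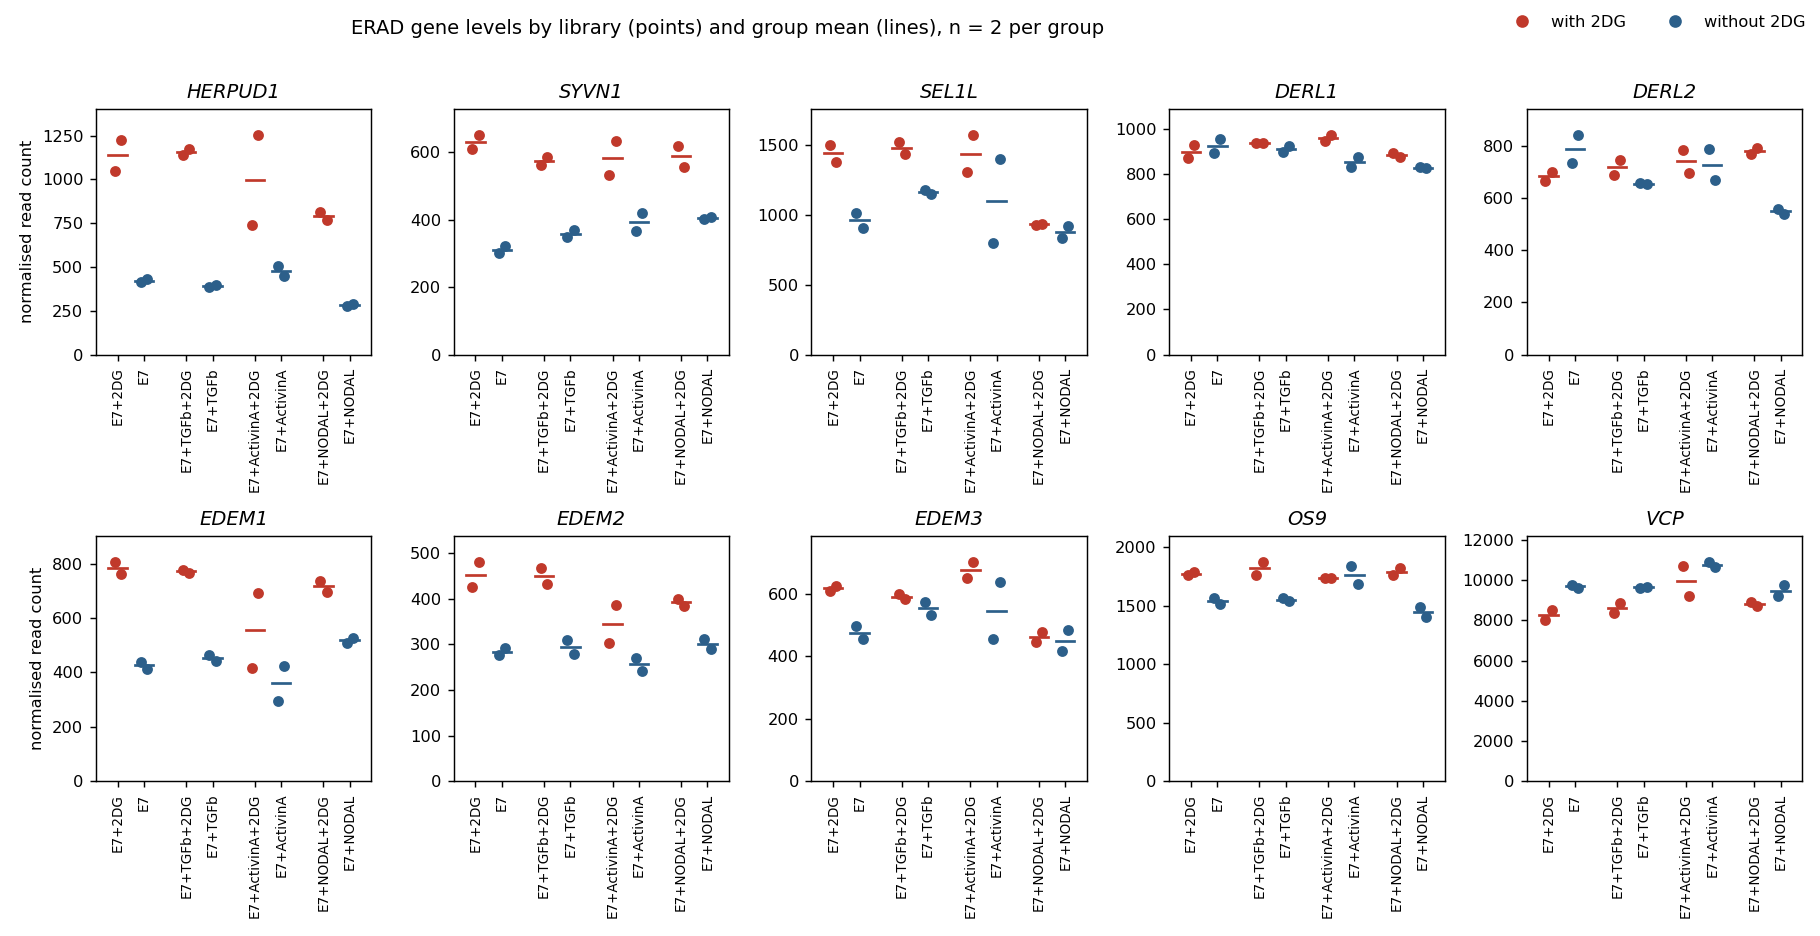
Normalised read counts of the 10 genes in each of the 16 libraries, one panel per gene with its own axis from 0; points are libraries and bars are group means, with the 2DG group of each medium left of its counterpart. HERPUD1 ran from 742 to 1252 with 2DG and from 275 to 507 without, and the groups of DERL1 lay almost level.

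HERPUD1 encodes a membrane protein with a ubiquitin-like domain that joins the HRD1 ligase complex and is a well-known target of the unfolded protein response (gene at chr16:56932048-56944863). It had 1049 and 1226 in E7 with 2DG against 414 and 430.3 in E7. It had 1140.1 and 1176 in TGFb medium with 2DG against 385 and 396 in TGFb medium, 742 and 1252 in Activin A medium with 2DG against 507 and 446 in Activin A medium, and 816 and 768 in NODAL medium with 2DG against 275 and 287 in NODAL medium. Every pair of groups was apart, with the lowest library of all, 275, in NODAL medium and the highest, 1252, in Activin A medium with 2DG. The responses were 1.42 ± 0.18 in E7 (2.68-fold; adjusted p = 0.000339), 1.57 in TGFb medium (2.96-fold; 0.000218), 1.02 in Activin A medium (2.02-fold; 0.0135) and 1.49 in NODAL medium (2.81-fold; 0.000498). The response in Activin A medium was lost without E7+ActivinA+2DG replicate 2 (log2 0.64, adjusted p = 0.072), the library at 1252, while the other library of that group stood at 742. It was also lost when only the 4 libraries compared were fitted (adjusted p = 0.632), a fit that called only 3 of 16714 genes. In the order of group means, NODAL, TGFb, E7 and Activin A medium came first and did not overlap one another. The groups with 2DG followed in the order NODAL, Activin A, E7 and TGFb, and the 742 and 1252 of the Activin A group spanned all the others.

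SYVN1 encodes HRD1, the ubiquitin ligase at the centre of the complex (chr11:65121780-65134533, minus strand). It had 610.1 and 649 in E7 with 2DG against 301 and 321 in E7, 2.02-fold (log2 1.02 ± 0.11; adjusted p = 0.000201). It had 562 and 586 in TGFb medium with 2DG against 347 and 369 in TGFb medium, 531 and 632 in Activin A medium with 2DG against 367 and 419 in Activin A medium, and 617 and 557 in NODAL medium with 2DG against 400.4 and 408 in NODAL medium. With 2DG all media lay within 531 to 649, whereas without it the values ran from 301 in E7 to 419 in Activin A medium. The responses in the 3 media with a ligand were 0.68 with TGFb (adjusted p = 0.00289), 0.56 with Activin A (0.0289) and 0.54 with NODAL (0.0162). The call with NODAL was lost without any of the 4 libraries compared (adjusted p between 0.0677 and 0.173). The call with Activin A was lost without each library other than E7 replicates 1 and 2, E7+ActivinA replicate 2 and E7+ActivinA+2DG replicate 1. It was also lost when only the 4 libraries compared were fitted (adjusted p = 0.879), where 3 of 16714 genes were called. Exons of SYVN1 share 398 bases with FAU on the same strand and 356 with MRPL49 on the opposite one, so reads there are of uncertain origin.

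SEL1L encodes the adaptor that holds HRD1 steady and receives substrates from the lectins (chr14:81471549-81533861, minus strand). It had 1496 and 1378 in E7 with 2DG against 1012 and 904 in E7, and 1519 and 1430.5 in TGFb medium with 2DG against 1176 and 1150.5 in TGFb medium. It had 1302 and 1566 in Activin A medium with 2DG against 798 and 1395 in Activin A medium, and 926 and 933 in NODAL medium with 2DG against 830.3 and 921 in NODAL medium. The libraries were apart in E7 and TGFb medium and just apart in NODAL medium, and they overlapped in Activin A medium, where 1 library without 2DG stood at 1395 and the other at 798. The rise in E7 was called (log2 0.59 ± 0.19; adjusted p = 0.0307) but was lost without any of the 4 libraries of that comparison (adjusted p between 0.0524 and 0.183). In TGFb medium the response of 0.34 had an adjusted p of 0.284 with all libraries and 0.00436 without the 4 Activin A libraries. In Activin A medium it was 0.44 (adjusted p = 0.215). Over the alternative fits it ran from 0.03 to 0.84, the 0.84 coming without E7+ActivinA replicate 2. In NODAL medium it was 0.09 (95% interval -0.31 to 0.49; adjusted p = 0.841).

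**Figure D2:**
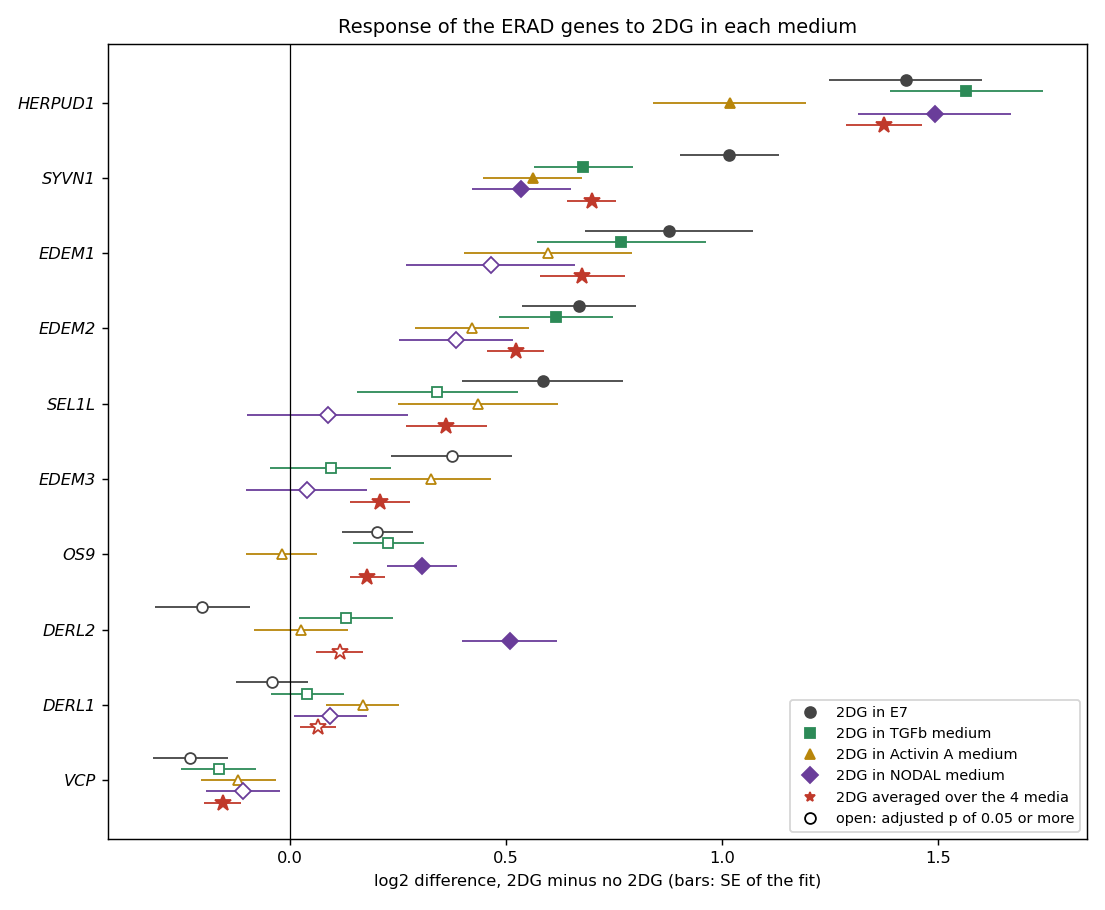
Log2 response to 2DG (2DG minus no 2DG, on log2 of the value plus 1) of each gene in each of the 4 media and averaged over them; bars are the SE of the limma fit and filled points have an adjusted p under 0.05. HERPUD1 lies between 1.02 and 1.57 in all 4 media, and DERL2 lies at 0.51 in NODAL medium and at -0.20 in E7.

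The 3 EDEM genes encode mannosidase-like proteins that trim or bind mannose on misfolded glycoproteins. EDEM1 (chr3:5187646-5219957) had 806 and 760.1 in E7 with 2DG against 439 and 412 in E7, and 777 and 766 in TGFb medium with 2DG against 465 and 441 in TGFb medium. EDEM1 had 415 and 693 in Activin A medium with 2DG against 296 and 425 in Activin A medium, and 736 and 695 in NODAL medium with 2DG against 509 and 527 in NODAL medium. Its groups overlapped only in Activin A medium, where both pairs of libraries were wide apart. The rises in E7 (log2 0.88 ± 0.20; adjusted p = 0.00561) and TGFb medium (0.77; 0.0256) were called. Leaving out E7 replicate 2 ended the call in E7 (adjusted p = 0.0526), and that in TGFb medium ended without any of its 4 libraries (0.113 to 0.159). In NODAL medium the response of 0.47 was not called with all libraries (adjusted p = 0.182) and was called without the Activin A libraries (0.000679). In Activin A medium it was 0.60 (adjusted p = 0.129). Over the alternative fits it ran from 0.23 to 0.97. It was 0.86 without E7+ActivinA replicate 2 and 0.97 without E7+ActivinA+2DG replicate 1. An antisense gene, AC026202.3, covers 9.7% of the exon bases of EDEM1.

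EDEM2 (chr20:35115357-35147364, minus strand) had 425 and 481 in E7 with 2DG against 277 and 291 in E7, and 469 and 433 in TGFb medium with 2DG against 309.5 and 278 in TGFb medium. It had 304 and 387 in Activin A medium with 2DG against 270.2 and 242 in Activin A medium, and 400.4 and 384 in NODAL medium with 2DG against 312 and 289 in NODAL medium. The libraries of each medium were apart, least so with Activin A. Rises were called in E7 (log2 0.67 ± 0.13; adjusted p = 0.00304) and TGFb medium (0.62; 0.011), the second lost without any of its 4 libraries (adjusted p between 0.0515 and 0.12). In NODAL medium the response was 0.38 (adjusted p = 0.106, and 0.0138 without the Activin A libraries). In Activin A medium it was 0.42 (adjusted p = 0.117). Over the alternative fits it ran from 0.25 to 0.60, the 0.60 coming without E7+ActivinA+2DG replicate 1. Over the 8 group means EDEM1 and EDEM2 had a Pearson's r of 0.98, the highest of the 45 pairs of members, as a description of groups that share 2DG and media.

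EDEM3 (chr1:184690231-184754913, minus strand) was called, with all 16 libraries, only in the average over media. It had 609 and 623 in E7 with 2DG against 496 and 455 in E7, and 598 and 582 in TGFb medium with 2DG against 574 and 531 in TGFb medium. It had 650.4 and 701 in Activin A medium with 2DG against 455 and 637 in Activin A medium, and 445 and 477 in NODAL medium with 2DG against 415 and 484 in NODAL medium. The libraries overlapped in NODAL medium and were apart in the other 3. No single medium gave a call, with responses from 0.04 in NODAL medium to 0.37 in E7 (adjusted p = 0.0577, 0.0491 with edgeR, and 0.00354 without the Activin A libraries). In Activin A medium it was 0.33 (adjusted p = 0.216). Over the alternative fits it ran from 0.08 to 0.57, the 0.57 coming without E7+ActivinA replicate 2. The called average of 0.21 (adjusted p = 0.0296) was lost without any of 9 libraries (adjusted p between 0.0507 and 0.0803), namely E7 replicate 2, replicate 2 of E7+TGFb, replicate 1 of E7+NODAL, both libraries of E7+2DG and E7+TGFb+2DG, and replicate 2 of E7+ActivinA+2DG and E7+NODAL+2DG. Over group means SEL1L was the member most like EDEM3 (r = 0.95), while LIN54 was the nearest of all genes compared (0.988). These are the 2 members with the longest exon totals, 7804 and 9559 bases, and the response in E7 rose with length over all genes (rho 0.308). The part of length in their likeness was not tested.

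OS9 encodes a lectin that recognises trimmed glycans and hands the protein to SEL1L (chr12:57693955-57721557). It had 1757 and 1783 in E7 with 2DG against 1562 and 1514 in E7, and 1762 and 1871 in TGFb medium with 2DG against 1562 and 1536 in TGFb medium. It had 1734 and 1736 in Activin A medium with 2DG against 1837 and 1679.8 in Activin A medium, and 1759 and 1819 in NODAL medium with 2DG against 1492 and 1402 in NODAL medium. Libraries with 2DG spanned only 1734 to 1871, and the groups were apart except in Activin A medium. A rise was called in NODAL medium (log2 0.31 ± 0.08; adjusted p = 0.0426), but not without any 1 of the 12 libraries that lacked Activin A (adjusted p between 0.057 and 0.28) or with all libraries scaled to the same total (0.0515). Without the 4 Activin A libraries the responses in E7 (0.20; 0.018) and TGFb medium (0.23; 0.0171) were called too. An antisense gene, AC025165.2, covers 13.5% of the exon bases of OS9, and reads of the pair cannot be told apart without knowing the strand setting.

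DERL1 and DERL2 encode derlins, membrane proteins that help substrates leave the ER. DERL1, on chromosome 8, was the steadiest member, with all 16 libraries between 825 and 970.4. It had 869 and 928 in E7 with 2DG against 894 and 954 in E7, and in E7 the response was -0.04 (95% interval -0.22 to 0.14; adjusted p = 0.744). The groups overlapped in E7, and the responses in the media with a ligand were 0.04 with TGFb, 0.17 with Activin A and 0.09 with NODAL, none of them called. DERL2 (chr17:5471251-5486811, minus strand) had 669 and 702 in E7 with 2DG against 738 and 842 in E7, and 690.1 and 749.5 in TGFb medium with 2DG against 658 and 656 in TGFb medium. It had 787 and 697 in Activin A medium with 2DG against 789.9 and 669 in Activin A medium, and 771 and 795 in NODAL medium with 2DG against 559 and 541 in NODAL medium. In E7 both libraries with 2DG lay below those without, whereas in NODAL medium both lay well above. The rise in NODAL medium was called (log2 0.51 ± 0.11; adjusted p = 0.0163) and was lost without any of its 4 libraries (adjusted p between 0.0902 and 0.138). The average over media was not called with all libraries (adjusted p = 0.109). Over the alternative fits it ran from 0.09 to 0.15, the 0.15 coming without E7+ActivinA replicate 1. Exons of DERL2 share 301 bases with MIS12 on the opposite strand.

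VCP encodes the ATPase p97, which pulls ubiquitinated proteins out of the membrane and serves many other pathways (chr9:35056064-35073249, minus strand). It was by far the most abundant member, at 1730 normalised reads per kilobase of exon on average, against 324 for OS9 and 69.9 to 181 for the other 8. VCP had 8038 and 8498 in E7 with 2DG against 9762 and 9621 in E7, and 8390.2 and 8849.5 in TGFb medium with 2DG against 9621 and 9688 in TGFb medium. It had 10698 and 9218 in Activin A medium with 2DG against 10908 and 10656 in Activin A medium, and 8905 and 8708 in NODAL medium with 2DG against 9226 and 9754 in NODAL medium. The groups overlapped in Activin A medium only and 2DG was on the low side in the other 3. No medium gave a call alone with all libraries, with -0.23 in E7 (adjusted p = 0.0597) and -0.16 in TGFb medium (0.266). Both were called without the Activin A libraries (0.00336 and 0.0465), and that in E7 also with DESeq2 (0.0457). Over group means VCP ran opposite to EDEM1 (r = -0.94).

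Medium by medium, 5 of 10 members rose in E7, against 14.6% of all tested genes, and 0 fell, against 14.8%. In TGFb medium 4 rose, against 5.47%, in Activin A medium 2, against 1.48%, and in NODAL medium 4, against 3.11%. The median response of members was 0.48, 0.29, 0.37 and 0.35 in that order of media. Without the 4 Activin A libraries, 7 rose and 1 fell in E7 (23% and 22.4% of all genes), and 6 rose and 1 fell in TGFb medium (11.8% and 12.8%), and 6 rose in NODAL medium (10.2%). Log2 responses to 2DG over all genes correlated with transcript length at rho 0.308 in E7, 0.00584 in TGFb medium, 0.317 in Activin A medium and -0.107 in NODAL medium. The part of length in the members' responses was not tested.

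**Figure D3:**
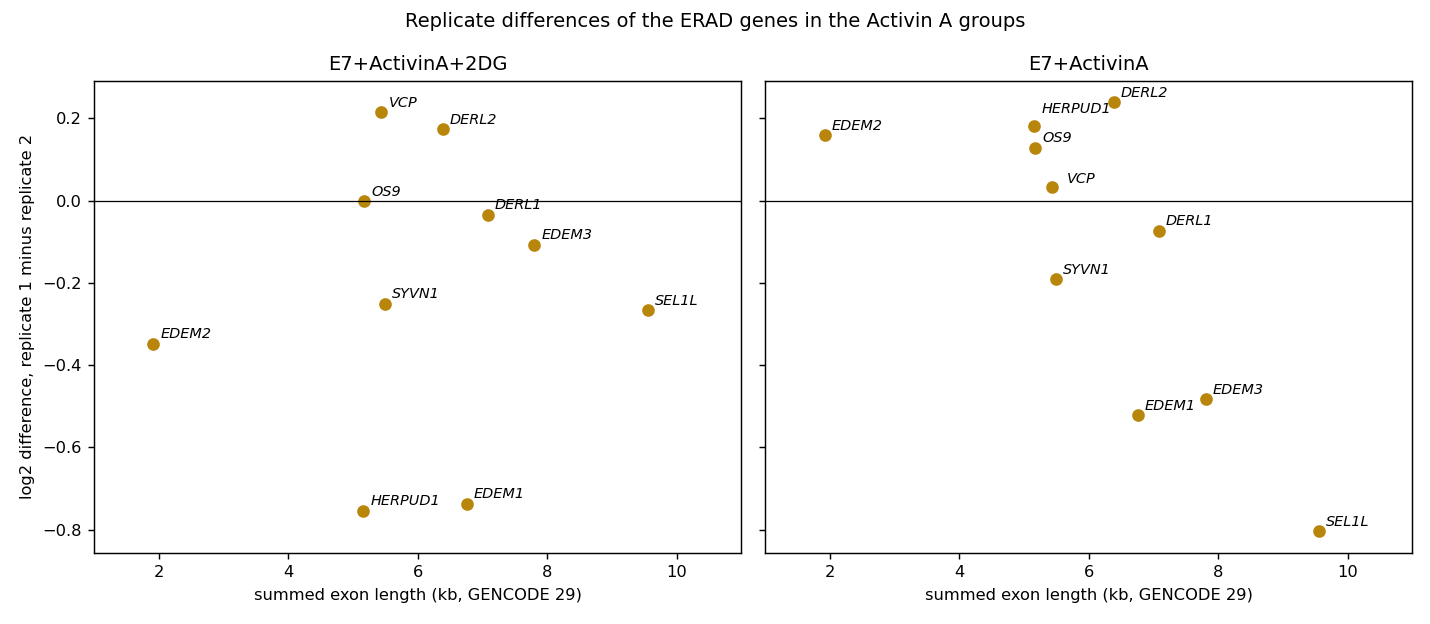
Log2 difference (replicate 1 minus replicate 2) of each member against its summed exon length in kilobases, for E7+ActivinA+2DG on the left and E7+ActivinA on the right, 1 point per gene. On the left HERPUD1 lies at -0.75 and EDEM1 at -0.74. On the right SEL1L, the longest, lies at -0.80, EDEM1 at -0.52 and EDEM3 at -0.48, and the 5 members above 0 run up to 0.24 for DERL2.

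The ligands were compared with E7 alone to ask whether a ligand of the TGFb family moves these genes, first without 2DG. NODAL medium had 1 member higher and 2 lower, where 10.6% and 10.9% of all tested genes were called. DERL2 fell to 559 and 541 in NODAL medium, against 738 and 842 in E7 (log2 -0.52 ± 0.11; adjusted p = 0.00592). HERPUD1 fell to 275 and 287, against 414 and 430.3 in E7 (-0.58; 0.0319). SYVN1 rose to 400.4 and 408, against 301 and 321 in E7 (0.38; 0.0319). The E7 libraries are shared with the comparison of 2DG in E7. The calls of HERPUD1 (adjusted p between 0.077 and 0.159) and SYVN1 (0.102 to 0.158) were lost without any of the 4 libraries, and that of DERL2 without E7 replicate 2 (0.0803) or E7+NODAL replicate 2 (0.061). With every library scaled to the same total, the difference for HERPUD1 was -0.46 (adjusted p = 0.0774). Without the 4 Activin A libraries EDEM1 was called as well (log2 0.28, adjusted p = 0.0117), where 19.3% of genes were called higher.

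Between TGFb medium and E7, limma called 0 members and 0% of genes, with 1 member and 3771 genes at an unadjusted p under 0.05; edgeR called 0 members and 0 genes, and DESeq2 0 members and 295 genes. Without the 4 Activin A libraries, SEL1L (log2 0.28, adjusted p = 0.0147) was called higher and DERL2 (-0.26, 0.0293) lower, against 26.2% of genes called in either direction. That contrast followed transcript length at rho 0.417, the steepest of the 14 comparisons, and the part of length was not tested. Between Activin A medium and E7, 0 members were called in limma, edgeR and DESeq2, where limma called 10% of genes. At an unadjusted p under 0.05 this comparison had 2 members and 3982 of 16714 genes. Members were called only when E7+ActivinA replicate 1 was left out, a fit with 1 library in that group.

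**Figure D4:**
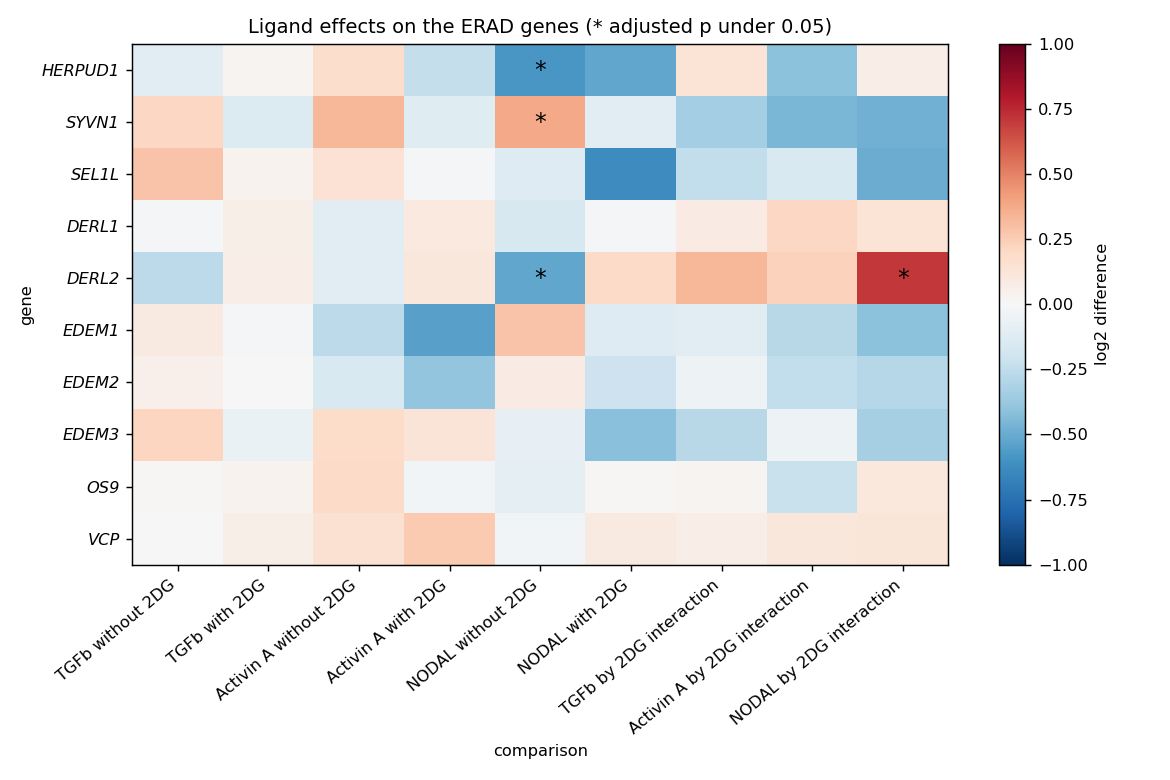
Log2 difference of each member between medium with a ligand and E7, without 2DG and with 2DG, and the difference of the 2DG responses (ligand medium minus E7); colour runs from lower to higher and an asterisk marks an adjusted p under 0.05. Asterisks stand only in NODAL columns, for DERL2, HERPUD1 and SYVN1 without 2DG and for DERL2 in the difference of responses.

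With 2DG present, limma called 0 members for each of the 3 ligands. At an unadjusted p under 0.05 there were 0 members with TGFb, 3 with Activin A and 3 with NODAL. All tested genes at that threshold numbered 273, 3016 and 2795 of 16714. At the adjusted threshold the shares of all genes called were 0%, 7.52% and 0.634%. DESeq2 called VCP with Activin A (adjusted p = 0.0472) and edgeR called none. Without the Activin A libraries 3 members were lower in NODAL medium with 2DG than in E7 with 2DG, where 10.5% of genes were called lower. SEL1L had 926 and 933 in NODAL medium with 2DG against 1496 and 1378 in E7 with 2DG (log2 -0.63; adjusted p = 8.26e-05). HERPUD1 had 816 and 768 against 1049 and 1226 in E7 with 2DG (-0.52; 0.000873), and EDEM3 had 445 and 477 against 609 and 623 (-0.42; 0.00613). With all 16 libraries their adjusted p-values were 0.142, 0.188 and 0.181. The contrast followed transcript length at rho -0.308, and the part of length was not tested.

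Whether a ligand changes the response to 2DG was tested as an interaction. For TGFb 0 members and 0% of genes were called, with 1 member and 2023 genes at an unadjusted p under 0.05. In edgeR and in DESeq2 0 genes were called. Without the 4 Activin A libraries the TGFb interaction had 0 members and 14.7% of genes called. For Activin A 0 members and 0.0419% of genes were called, and edgeR and DESeq2 called 0 members. At an unadjusted p under 0.05 that interaction had 1 member and 1650 genes. For NODAL 1 member was called, DERL2, where 1.87% of genes were. Its response was 0.51 in NODAL medium and -0.20 in E7, a difference of 0.71 ± 0.15 (adjusted p = 0.0443). That call was lost without any 1 of 11 libraries, each of those in E7+2DG, E7+TGFb, E7+TGFb+2DG, E7+NODAL and E7+NODAL+2DG and E7 replicate 2. Fewer genes of the whole table were called as well without E7 replicate 2 or a library of E7+2DG or E7+TGFb. The share of all genes called was 7% with a mean of at least 50. With DESeq2 it was 17% of 10233 genes. DERL2 kept its call in both. Without the Activin A libraries SYVN1 (-0.48; adjusted p = 0.00964), SEL1L (-0.50; 0.00301) and EDEM1 (-0.41; 0.0135) were called as well, each with a smaller response in NODAL medium than in E7, where 28.7% of genes were called. With all libraries their adjusted p-values were 0.0898, 0.248 and 0.363. For HERPUD1 the difference was 0.07 (95% interval -0.47 to 0.61).

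Other genes of the pathway were followed in 3 lists. Averaged over media, 8 of 22 ubiquitin enzymes and membrane factors rose and 2 fell (median 0.06). RHBDD1, an ER rhomboid protease, rose by 0.49 to 496 with 2DG against 352 without (adjusted p = 0.000427), UBE2J1, a membrane-anchored ubiquitin-conjugating enzyme, rose by 0.40, and RNF145, a ligase of sterol control, fell by 0.34. Of 12 lectins, mannosidases and luminal factors 6 rose and 1 fell (median 0.20), among them FOXRED2 (ERFAD, a luminal reductase partner of SEL1L) at 0.55, with 352 with 2DG against 242 without (5.2e-05), DNAJB9 (ERdj4, a BiP co-chaperone) at 0.44 and MAN1C1, a mannosidase, at 0.33. Of 19 p97 cofactors and cytosolic factors 2 rose and 5 fell (median -0.06). SVIP, an inhibitor of p97 in ERAD, fell by 0.50 to 276 with 2DG against 393 without (3.03e-05), SELENOK fell by 0.34 and UBQLN2, a ubiquitin shuttle, by 0.22. The shares called over all genes were again 19.2% and 19.4%.

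**Figure D5:**
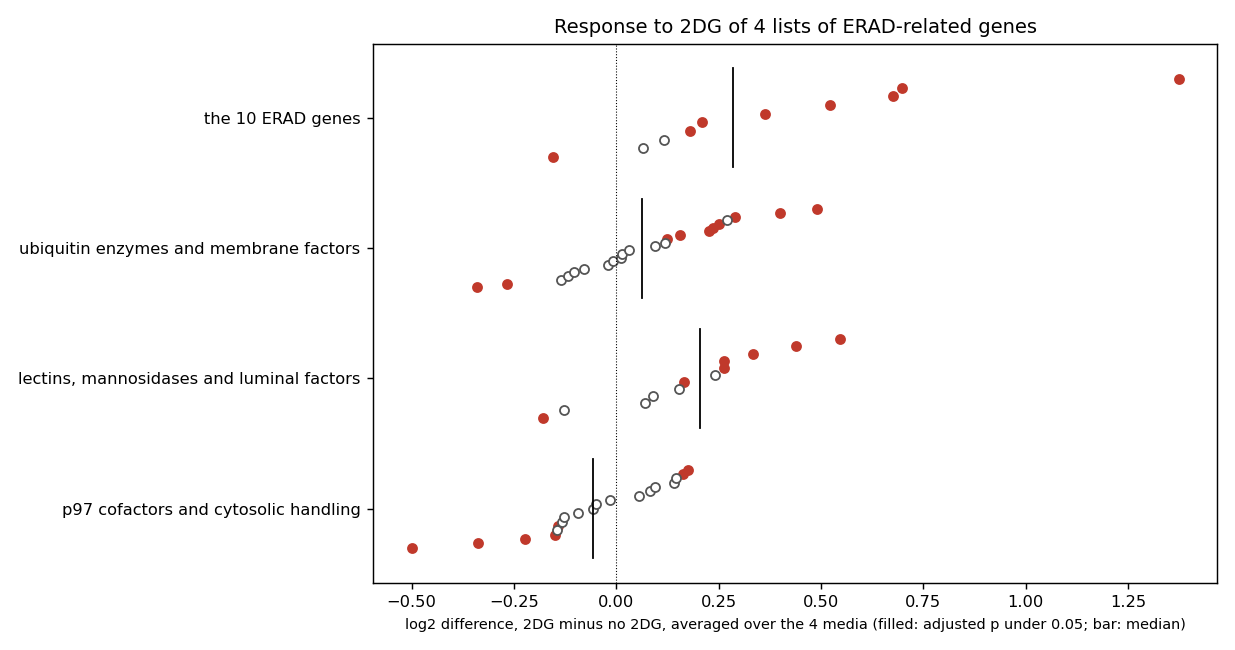
Log2 response to 2DG averaged over the 4 media for the 10 members and 3 lists of other pathway genes, with 1 point per gene, filled where the adjusted p was under 0.05, and a bar at the median. The medians are 0.29 for the members, 0.06 for ubiquitin and membrane factors, 0.20 for lectins and luminal factors and -0.06 for p97 cofactors.

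In E7 alone FOXRED2 rose by 1.01 to 390.3 with 2DG, against 193 without, and RHBDD1 by 0.92 to 555 against 292. DNAJB9 had 311 with 2DG and 311 without in E7 (log2 -0.0029), and rose by 0.61 in TGFb medium and by 0.75 in NODAL medium. These responses were not called different from that in E7: in the TGFb and NODAL interactions 0 of the 12 genes of its list were called higher. Without 2DG, NODAL medium had DNAJB9 lower than E7 (-0.64, adjusted p = 0.00455), as for HERPUD1 and DERL2, and MAN1C1 (0.82) and FOXRED2 (0.59) higher. Without 2DG, 3 of the 12 genes of that list were called higher in Activin A medium than in E7, and 0 lower. They were the mannosidase genes MAN1C1 (0.99), MAN1A1 (0.70) and MAN1B1 (0.40). Over all tested genes, 882 of 16714 were called higher and 793 lower. The E7+ActivinA libraries stood apart from each other (chi-square per degree of freedom 53.3). With the compared libraries alone, all genes called fell from 1675 to 96. Whether the 3 mannosidase calls held there was not tested.

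Among the genes whose 8 group means ran most like those of HERPUD1, of 10697 genes, were SQSTM1 (r = 0.997), SLC38A9 (0.991), GARS (0.990) and DDIT3 (0.988), the last being the transcription factor CHOP. OS9 was the nearest member to HERPUD1 at 0.88. For EDEM1 the nearest was P3H2 (0.993) and for EDEM2 RGMB (0.994). Among the 5 nearest to both were SCN4A (0.989 and 0.990), TFE3 (0.987 and 0.991) and SH3KBP1 (0.982 and 0.989). All these points share the same 8 groups, 4 of them with 2DG.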

How the data were processed

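Polyadenylated RNA of 16 libraries was read from both ends on a NextSeq 500, per the labels' protocols. In the deposited table the signal of a gene is its read count after division by a size factor, 1 for each library. All values (100%) were whole multiples of the value of 1 read within a tolerance of 1e-06, so whole reads were recovered. Named in the submitters' processing notes are hg38, featureCounts 1.5.3, STAR, Trimmomatic 0.36 and DESeq2 1.26.0. The annotation, strand setting and gene filter are not given in the sources used here.

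Genes that reached 10 in 2 or more libraries were tested. With R 4.3.3 and limma 3.58.1, 1 model of 8 group means was fitted with a trend to log2 of the value plus 1, and 14 comparisons were taken, 3 of them interactions. Tests were two-sided, with Benjamini-Hochberg adjustment within a comparison. The fit was checked on simulated data. Alternatives were TMM scaling, an equal total, pseudocounts of 0.5 and 8, no filter or a mean of at least 50, a robust fit, the compared libraries alone, no Activin A libraries, a replicate block, edgeR 4.0.16 and DESeq2 1.42.0 on recovered reads, and each library left out. On the recovered reads edgeR called 4838 genes for 2DG in E7, where limma called 4913. Where leaving out a library left a group with 1 library, its spread was taken from the remaining groups.

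Positions and exon lengths came from GENCODE 29 (GRCh38), matched for 17317 of 17738 symbols. The members and lists were chosen with earlier results of these data known. The text names the 10 members in every comparison, up to 3 called genes with the largest change per list, and the 5 genes most like a member over group means of at least 100, of which only some are given.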

Additional observations from a re-analysis of the deposited data

Results flagged for a closer look

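DERL2, the derlin gene, was the member whose response to 2DG differed between media by a test of the difference itself in the fit of all 16 libraries. Its log2 response was 0.51 in NODAL medium and -0.20 in E7, a difference of 0.71 (limma, adjusted p = 0.0443). The call was lost in 12 of 28 alternatives, 11 of them leaving out 1 library. The other was the replicate block, where 0 of 16714 genes were called. Without the 4 Activin A libraries the differences of SYVN1 (adjusted p = 0.00964), SEL1L (0.00301) and EDEM1 (0.0135) were called too. Both libraries moved up with 2DG in NODAL medium and both lay lower with 2DG in E7. Without 2DG, DERL2 was lower in NODAL medium than in E7 by a log2 difference of -0.52. The interaction followed transcript length over all genes at rho -0.378, DERL2 has 6386 exon bases, and the part of length was not tested.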

How the results depend on the processing

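The responses of HERPUD1 and SYVN1 in E7 and TGFb medium and averaged over media kept their direction and call under every alternative run. Counts of called members that moved by more than 1.5 times were as follows. With the compared libraries alone they were 7 for 2DG in TGFb medium, 0 for 2DG in Activin A medium, 3 for NODAL with 2DG and 4 for the NODAL interaction. In those fits 37.9%, 0.0179%, 20.2% and 23.6% of all genes were called, in that order. With all 16 libraries the shares were 9.84%, 1.7%, 0.634% and 1.87%. Without the 4 Activin A libraries they were 8 for 2DG in E7, 7 for 2DG in TGFb medium, 2 for TGFb without 2DG, 3 for NODAL with 2DG and 4 for the NODAL interaction. The shares of all genes called were then 45.4%, 24.6%, 26.2%, 17.7% and 28.7%, in that order. With all 16 libraries they were 29.4%, 9.84%, 0%, 0.634% and 1.87%. DESeq2 called 1 for Activin A with 2DG, where it called 8.28% of genes. The fit with a replicate block called 0 for the NODAL interaction (DERL2 at an adjusted p of 0.0634), where 0 of 16714 genes were called. OS9 in NODAL medium lost its call in that fit (0.0607), where 4.83% of genes were called. As a check of pairing, the differences between replicate 1 and replicate 2 over all tested genes were correlated between groups. The correlations ran from -0.393 to 0.242 and were above 0.1 in 3 of 28 pairs of groups. Those were E7 with E7+2DG (0.13), E7+ActivinA with E7+ActivinA+2DG (0.242) and E7+ActivinA with E7+NODAL (0.178). Leaving out 1 library at a time gave 3 to 8 members for 2DG in E7 (3 without E7 replicate 2, 8 without either E7+ActivinA library), 2 to 6 in TGFb medium (2 without any of its 4 libraries), 0 to 5 in Activin A medium (0 without E7+ActivinA+2DG replicate 2, 5 without E7+ActivinA replicate 2), 1 to 5 in NODAL medium (1 without any of its 4 libraries) and 7 to 9 on average. It gave 0 to 3 for NODAL without 2DG, NODAL with 2DG, the NODAL interaction and Activin A without 2DG, 0 to 4 for Activin A with 2DG, 0 to 2 for the Activin A interaction, 0 to 1 for TGFb without 2DG and 0 to 0 for TGFb with 2DG and its interaction. Signs turned only among uncalled responses. DERL1 in E7 was 0.018 at an equal total. Without single libraries, DERL1 in E7 ran from -0.088 to 0.0062, DERL2 in Activin A medium from -0.092 to 0.15, OS9 in Activin A medium from -0.082 to 0.047 and EDEM3 in NODAL medium from -0.072 to 0.15. The cause of these changes was not tested. Every member had at least 257 reads in each library.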
